A study of Homo sapiens with 8 samples.

Results

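The genes described here encode ribosome biogenesis and nucleolar proteins in WM902B cells, an established human line of primary melanoma with the activating mutation BRAFV600E. They were chosen by symbol alone, as the rows whose name starts with UTP, RRP, RRS1, NOP, NOL, NOC followed by a digit and L, EXOSC, IMP3, IMP4, GNL, BOP1, PES1, WDR12, WDR75, FBL, NHP2 or GAR1. NOP56 and NOP58 were left out by that rule. It found 53 of the 4616 genes in the table, and GAR1 had no row. All but 1 of the 53 have a known role in making ribosomes, in modifying ribosomal RNA or in trimming it. The exception is GNL1, a GTP-binding protein that matched by name and whose role in ribosome production is not established.

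Ribosome footprints and RNA were sequenced after cells had been infected with either shSCR, a scrambled control hairpin, or shTINCR, a hairpin against the long non-coding RNA TINCR. The 8 libraries form 4 groups of 2 biological replicates, namely footprints and RNA for each hairpin. All cells were at passage 18 and received cycloheximide, which arrests elongating ribosomes, at 100 µg/ml for 5 min. The labels do not say whether shTINCR is 1 hairpin sequence or several, and all cells came from 1 line. Titles call the RNA libraries total RNA, whereas their molecule field names polyA RNA.

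All values come from a single table, the authors' own comparison of both hairpins. Per gene, it lists translational efficiency (TE), the ratio of footprints to mRNA, as a log2 level for either hairpin, together with its log2 change and the p-value of that change. TE is a ratio within a gene, so its length cancels in the level where footprints and RNA were counted over the same region. Whether they were was not checked. The table holds no value of a single library, so depth and the spread between replicates are unknown, and each level is printed as the authors' own value. A standard error implied by a log2 change and its p-value, taken as that of a normal statistic, stands in as the precision of a single change. TINCR had 0 rows, so its silencing was not checked here. Of 8 melanocyte lineage markers 7 had a row (all but TYRP1), against 0 of 4 keratinocyte, 0 of 3 endothelial, 1 of 5 fibroblast and 1 of 4 immune markers. A row shows only that a gene passed the authors' own selection of rows, not its level.

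Ribosomes are made in the nucleolus, where RNA polymerase I transcribes a long precursor of the ribosomal RNAs. Small nucleolar RNPs modify it, the small subunit processome folds and cleaves the part that becomes the small subunit, and a separate set of factors matures the large subunit. The RNA exosome, a complex of 3′ to 5′ nuclease activity, trims the precursor and degrades the spacers. Many of these genes are known targets of the transcription factor MYC, which binds the E-box CACGTG. The mRNAs of ribosomal proteins and of several other translation genes start with a C and a run of pyrimidines, the TOP element that couples their translation to mTORC1.

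Sequence around the start of transcription was therefore examined, as a feature that the choice of genes did not use. Windows from 250 bases before to 50 bases from the start on, from RefSeq on GRCh38.p14, were at hand for 45 of the 53 genes and for 3735 of all genes in the table. The E-box CACGTG, which reads the same on both strands, occurred in 19 of the 45 genes (42.2%). It occurred in 545 of the 3735 genes (14.6%) and in 7.26% of all 35116 windows of that length. In 15 of the 19 genes its first base lay within 20 bases of the start, against 114 of the 545 genes, a distance chosen after the positions were seen. As a share of all genes with a window, that is 33.3% of the biogenesis genes and 3.05% of the table. Shown are 3 genes whose TE changed (IMP4, NOL7 and NOC3L) and 6 others with the E-box closest to the start, to let its surroundings be compared. Each line gives 30 bases, 5′ to 3′ in the direction of the gene on GRCh38.p14, with the E-box in capitals.
IMP4 (chr2:130342900-130342929, plus strand): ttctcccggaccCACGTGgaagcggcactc
NOL7 (chr6:13615174-13615203, plus strand): gcctgcgctggcCACGTGgaaagaaacacg
NOC3L (chr10:94362903-94362932, minus strand): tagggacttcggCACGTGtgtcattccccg
GNL2 (chr1:37595917-37595946, minus strand): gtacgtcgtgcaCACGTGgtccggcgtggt
UTP18 (chr17:51260538-51260567, plus strand): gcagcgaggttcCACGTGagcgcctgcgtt
RRP9 (chr3:51941892-51941921, minus strand): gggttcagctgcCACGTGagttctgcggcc
GNL3 (chr3:52686026-52686055, plus strand): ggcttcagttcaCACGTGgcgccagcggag
FBL (chr19:39846356-39846385, minus strand): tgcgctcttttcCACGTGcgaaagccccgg
NOL8 (chr9:92325342-92325371, minus strand): gctccgttgggaCACGTGaccagaagttag

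The E-box began 15 bases after the annotated start of IMP4 and 19 after that of NOC3L, but 149 bases before that of NOL7. Among the 19 genes with an E-box, TE of 2 rose and of 1 fell in the authors' deposited table, and among the 26 without one 3 rose and 4 fell. The median log2 change was -0.02 with an E-box and 0.0079 without one in the authors' deposited table. Over all 3735 genes these medians were 0.04 and 0.01. There 56 of the 545 genes with an E-box rose and 43 fell (10.3% and 7.89%), and of the 3190 without one 237 rose and 267 fell (7.43% and 8.37%).

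A pyrimidine start, defined as a C at the annotated start followed by 4 bases that are each C or T, was found in 4 of the 45 genes (8.89%). Its share was 8.81% of the 3735 genes in the table, 4.07% of all windows and 71.4% of 63 cytosolic ribosomal protein genes with a window. The 4 starts are shown because the element is tied to translation. Capitals mark the unbroken run of pyrimidines from the annotated start on, and 15 bases before the start precede it.
NOP53 (chr19:47745531-47745560, plus strand): gccagtggctgagttCTTCCTTTgacaaga
FBL (chr19:39846365-39846394, minus strand): ccgcgcgcctgcgctCTTTTCCacgtgcga
GNL1 (chr6:30556475-30556504, minus strand): tcccacgcgcgcctcCTTCCTCgccgccgg
UTP14A (chrX:129906149-129906178, plus strand): cacggaaattgctttCCTTCggcttccgtt

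The run was 8 bases long in NOP53, 7 in FBL and GNL1 and 5 in UTP14A. The windows of FBL, GNL1 and UTP14A also held an E-box. TE of NOP53 fell in the authors' deposited table, and that of the other 3 did not pass the threshold (log2 changes of -0.16 for FBL, 0.13 for GNL1 and -0.30 for UTP14A). In the whole table the 329 genes with such a start had a median log2 change of -0.09, with 16 that rose and 75 that fell (4.86% and 22.8%). The 3406 genes with a window but no such start had a median of 0.02, with 277 that rose and 235 that fell (8.13% and 6.90%). Cytosolic ribosomal protein genes are among both. Of these, 23 of 45 with such a start fell (51.1%) and 9 of 18 without one (50%), while 0 and 2 rose. Annotated starts can lie some bases away from those used in WM902B cells, so a match or its absence describes the annotation. The GC content of the windows had a median of 62.7% in the 45 genes, with a range from 43.7% to 77.7%, against a median of 65.0% in the table. Across genes, which are not independent replicates, its Spearman correlation with the log2 change was 0.25 over the 45 genes and 0.17 over the 3735.

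In shSCR cells the biogenesis mRNAs lay above the typical gene in TE. The median log2 TE was 0.33 in shSCR and 0.28 in shTINCR cells in the authors' deposited table, against 0.0078 and 0.0019 over all genes. Of the 53 genes 34 lay above the table's median in shSCR cells, 16 above its upper quartile and 4 below its lower quartile. The highest level in the authors' deposited table was that of the large subunit factor NOP16, with a log2 TE of 1.79 in shSCR and 1.92 in shTINCR cells. UTP4, a scaffold protein of the small subunit processome, followed at 1.73 and 1.57, and NOP2, a methyltransferase of large subunit RNA, at 1.32 and 1.25 in the authors' deposited table. The lowest level belonged to RRP7A, at -0.98 in shSCR and -0.51 in shTINCR cells, followed by RRP1B at -0.85 and -0.84 and NOP9 at -0.70 and -0.47 in the authors' deposited table. The span from RRP7A to NOP16 was thus far wider than any change between conditions among the 53 genes. The Pearson correlation of log2 TE between conditions was 0.929 across the 53 genes and 0.963 across all genes.

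**Figure D1:**
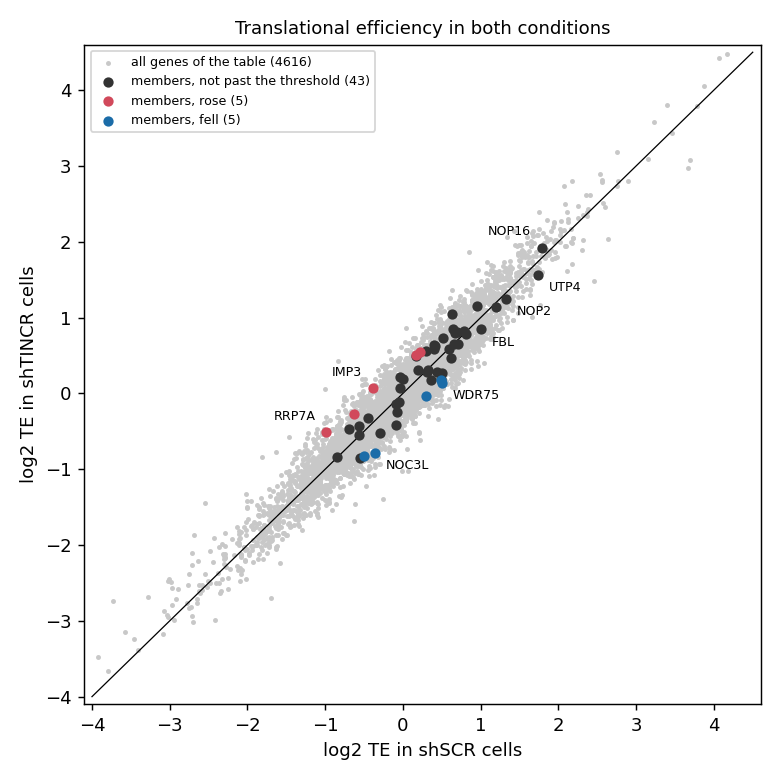
Log2 TE in shSCR cells (x axis) against log2 TE in shTINCR cells (y axis), from the authors' deposited table, with all 4616 genes in grey and the line of equal TE. The 53 biogenesis genes lie along the line, the 5 that rose (red) above it and the 5 that fell (blue) below it.

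The comparison addresses how efficiently each of these mRNAs was translated with TINCR targeted. TE of 10 of the 53 genes changed (18.9%) at the authors' adjusted p below 0.05, against 16.4% of all genes in the table. RRP7A, IMP3, IMP4, NOL7 and NHP2 rose, 5 genes against a background of 8.23%, and NOC3L, WDR75, WDR12, NOP53 and NOL11 fell, 5 genes against 8.17%. The share past the threshold was near that of the table in each direction. At an unadjusted p below 0.05 the counts were 8 upwards and 10 downwards, with 15.8% and 13.7% of all genes (29.5% in either direction). The median log2 change was 0.02 for the 53 genes and 0.02 for all genes in the authors' deposited table. The quartiles of the 53 genes lay at -0.16 and 0.21, and those of all genes at -0.15 and 0.18. The ends were -0.42 (NOC3L) and 0.47 (RRP7A), so 0 of the 53 genes reached a 1.5-fold change. The share of all genes that did so was not counted. The changes ran in both directions among the 53 genes, around the same centre as those of the table. The median of the 53 genes was so close to 0 that its sign turned in some alternatives (-0.0079 without the least precise values).

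**Figure D2:**
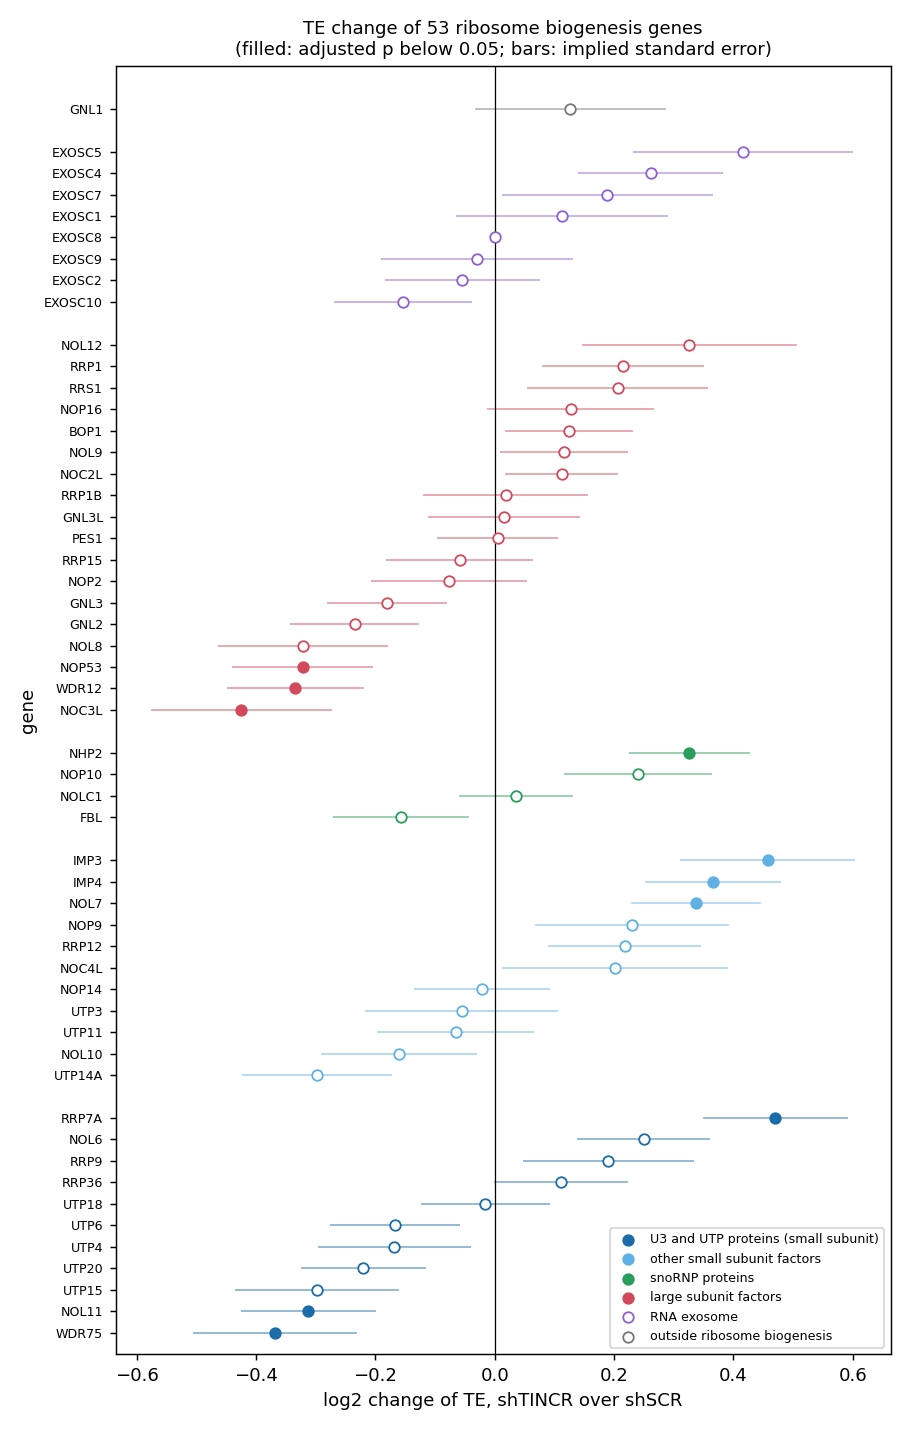
Log2 change of TE, shTINCR over shSCR, for each of the 53 genes (one row each, grouped by role), from the authors' deposited table; horizontal bars span 1 implied standard error to each side, and EXOSC8, listed at 0, has none. Filled symbols mark the 10 genes at an adjusted p below 0.05, of which the 5 that rose are small subunit and snoRNP proteins and the 5 that fell are 3 large subunit factors and 2 small subunit proteins.

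The 5 rises came from proteins of the early small subunit pathway and from 1 snoRNP protein. They do not describe that pathway as a whole. Of 34 other small subunit factors outside the symbol rule, 0 rose, with 7 above 0 and 27 below in the authors' deposited table. RRP7A, a small subunit processome protein, rose from -0.98 to -0.51 in log2 TE, a log2 change of 0.47 (1.39-fold, implied standard error 0.121, adjusted p = 0.00243) in the authors' deposited table. It had both the lowest TE of the 53 genes in shSCR cells and the largest rise. The change is counted from that shSCR level, so level and change are not independent. Their Spearman correlation was -0.127 across the 53 genes and -0.0237 across all genes. IMP3 and IMP4 bind the U3 small nucleolar RNA together with MPHOSPH10. IMP3 rose from -0.39 to 0.07, by 0.46 (1.37-fold, implied standard error 0.147, adjusted p = 0.0182) in the authors' deposited table. IMP4 rose from -0.63 to -0.27, by 0.37 (1.29-fold, implied standard error 0.114, adjusted p = 0.0152) in the authors' deposited table. Both lay below the table's median in shSCR cells, and IMP3 lay above it in shTINCR cells. NOL7, a nucleolar protein counted here with the small subunit factors, rose from 0.17 to 0.51, by 0.34 (1.26-fold, implied standard error 0.109, adjusted p = 0.0197) in the authors' deposited table. NHP2, a core protein of the box H/ACA RNPs that guide pseudouridylation, rose from 0.22 to 0.54, by 0.33 (1.25-fold, implied standard error 0.102, adjusted p = 0.0148) in the authors' deposited table.

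Among the 5 falls, 3 were of large subunit factors and 2 of proteins that bind the growing precursor first. NOC3L, a partner of NOC2L in early large subunit particles, fell from a log2 TE of -0.36 to -0.78, a log2 change of -0.42 (0.745-fold, implied standard error 0.152, adjusted p = 0.0369) in the authors' deposited table. WDR12, which forms the PeBoW complex with PES1 and BOP1, had 0.30 in shSCR and -0.03 in shTINCR cells, a change of -0.33 (0.793-fold, implied standard error 0.114, adjusted p = 0.0284) in the authors' deposited table. NOP53, a late large subunit factor that recruits the exosome, had -0.50 and -0.82, a change of -0.32 (0.800-fold, implied standard error 0.118, adjusted p = 0.0433) in the authors' deposited table. WDR75 and NOL11 belong to UTP-A, the complex that binds the 5′ end of the precursor and is also needed for its transcription. WDR75 went from 0.50 to 0.14, a change of -0.37 (0.775-fold, implied standard error 0.138, adjusted p = 0.0475) in the authors' deposited table. NOL11 went from 0.49 to 0.17, a change of -0.31 (0.805-fold, implied standard error 0.113, adjusted p = 0.0397) in the authors' deposited table. All 5 adjusted p-values lay between 0.0284 and 0.0475, close to the threshold. At an adjusted p below 0.01, 1 gene (RRP7A) was left and 0 of the falls.

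Several of these values can hold reads of other genes. NOL11 and NOP53 have a small nucleolar RNA gene inside them (SNORA38B and SNORD23), as do GNL3 (5 such genes) and UTP20 (1), 4 genes of the 53. All 4 had log2 changes below 0, with a median of -0.27, against 0.04 for the other 49 in the authors' deposited table. Without these 4 genes the falls numbered 3. Of the 10 genes that changed, 5 have named pseudogenes (RRP7A, NHP2, IMP3, WDR12 and NOL11), as do 13 of all 53. Another annotated gene overlaps 5 of the 10 (RRP7A, NHP2, NOL7, NOC3L and NOP53) and 21 of all 53. Single values of these genes are uncertain. Without the 13 biogenesis genes that have a named pseudogene, 2 rose and 3 fell. The part of small nucleolar RNA, pseudogene or overlapping reads in the values was not tested.

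By role, the U3 and UTP proteins of the small subunit processome comprised 11 genes, with 1 rise (RRP7A), 2 falls (WDR75 and NOL11) and a median log2 change of -0.17 in the authors' deposited table. Those are 9.09% and 18.2% of the 11, against 8.23% and 8.17% of all genes. Shares in role groups of this size rest on few genes. NOL6, which forms UTP-C with RRP7A, had a log2 change of 0.25 (adjusted p = 0.109, the authors' deposited table). RRP9, the WD repeat protein of the U3 RNP, had 0.19, and RRP36, an early processome factor, 0.11. UTP15 of UTP-A had -0.30 (adjusted p = 0.122) and UTP4 of the same complex -0.17 in the authors' deposited table. UTP20, a large helical repeat protein, had -0.22, and the UTP-B proteins UTP6 and UTP18 had -0.17 and -0.02. The subgroup thus split, with RRP7A, NOL6, RRP9 and RRP36 above 0 and the 7 others below.

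The other 11 small subunit factors had a median log2 change of 0.20, with 3 rises (IMP3, IMP4 and NOL7) and 0 falls (1 at an unadjusted p below 0.05, UTP14A) in the authors' deposited table. Those are 27.3% and 0% of the 11, against 8.23% and 8.17% of all genes (15.8% and 13.7% at an unadjusted p below 0.05). NOP9, an RNA-binding protein, had 0.23, RRP12, which takes part in small subunit export, 0.22, and NOC4L, the partner of NOP14, 0.20 in the authors' deposited table. NOP14 itself had -0.02, the processome proteins UTP3 and UTP11 had -0.06 and -0.07, and NOL10 had -0.16 in the authors' deposited table. UTP14A, which activates the helicase DHX37, had the lowest value, -0.30 from a log2 TE of 0.48 to 0.19, and missed the threshold (adjusted p = 0.0868, the authors' deposited table).

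Of the 4 snoRNP proteins measured, NHP2 rose (25% of the 4, against 8.23% of all genes). NOP10, its partner in the box H/ACA RNPs, had a log2 change of 0.24 (adjusted p = 0.176, the authors' deposited table). NOLC1, a chaperone of snoRNPs, had 0.04, and FBL (fibrillarin), the methyltransferase of the box C/D RNPs, went from a log2 TE of 1.002 to 0.845, a change of -0.16 (adjusted p = 0.367, the authors' deposited table).

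Among the 18 large subunit factors 0 rose, also without adjustment of the p-value, and 3 fell (NOC3L, WDR12 and NOP53; 5 at an unadjusted p below 0.05, with GNL2 and NOL8), with a median log2 change of 0.01 in the authors' deposited table. Those are 0% and 16.7% of the 18, against 8.23% and 8.17% of all genes (15.8% and 13.7% at an unadjusted p below 0.05). Of the 15 others, NOL12 had the highest change, 0.33 with an implied standard error of 0.180 (adjusted p = 0.209, the authors' deposited table). RRP1, an early large subunit factor, had 0.22, RRS1, which helps to build the 5S RNP into the subunit, 0.21, and NOP16 0.13. BOP1, NOL9, a polynucleotide kinase of precursor cleavage, and NOC2L had 0.12, 0.12 and 0.11 in the authors' deposited table. RRP1B, GNL3L and PES1 lay within 0.02 of 0 (0.02, 0.02 and 0.0048). On the other side RRP15 had -0.06, NOP2 -0.08, and the nucleolar GTPases GNL3 (nucleostemin) and GNL2 -0.18 and -0.23 in the authors' deposited table. NOL8, another nucleolar protein, had -0.32 but missed the threshold (adjusted p = 0.106, the authors' deposited table).

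Of all genes 16.4% passed the adjusted threshold and 29.5% were below 0.05 without adjustment. None of the 8 measured exosome genes passed the adjusted threshold, and 2 were below 0.05 without adjustment in the authors' deposited table. These were EXOSC5, with a log2 change of 0.42 from 0.63 to 1.05 and an implied standard error of 0.184 (adjusted p = 0.106), and EXOSC4, with 0.26 from 0.30 to 0.56 (adjusted p = 0.126, the authors' deposited table). Both are subunits of the ring through which RNA is threaded. Of the other ring subunits EXOSC7 had 0.19 and EXOSC9 -0.03, and EXOSC8 was listed at 0 in the authors' deposited table. The cap subunits EXOSC1 and EXOSC2, which bind RNA, had 0.11 and -0.05, and the nuclear nuclease EXOSC10 had -0.15 (adjusted p = 0.387, the authors' deposited table). The implied standard errors of the exosome genes had a median of 0.161, against 0.127 for the 53 genes, so single changes were less precise there. GNL1 had a log2 change of 0.13 (adjusted p = 0.632, the authors' deposited table).

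Values were then set side by side within known complexes, a grouping made after the values were seen, with partners that the symbol rule does not take in. UTP-A had 6 of 6 subunits below 0, 2 of them past the threshold as falls, where 8.17% of all genes fell and 8.23% rose. Its subunits ranged from -0.37 (WDR75) to -0.13 (HEATR1), with WDR43 at -0.22 in the authors' deposited table. Of these subunits WDR43 holds 3 small nucleolar RNA genes and NOL11 holds 1, and the other 4 hold 0; the part of such reads was not tested. Among all genes, 2169 of 4616 lay below 0, and among the 119 measured pathway genes outside the symbol rule 83 did. Other complexes were also one-sided. All 3 measured subunits of the box C/D RNP and both exosome nucleases lay below 0, and both UTP-C proteins above. UTP-B had 5 of 6 below 0 and 0 past the threshold, with or without adjustment, the exception being TBL3 at 0.25 in the authors' deposited table. In the MPP10 complex IMP3 and IMP4 rose, while MPHOSPH10 had -0.09 (adjusted p = 0.730) from a log2 TE of 0.48 to 0.39 in the authors' deposited table. IMP3 and IMP4 had started from a lower TE than MPHOSPH10, and in shTINCR cells both were still below it. In the box H/ACA RNP NHP2 and NOP10 were above 0 and the pseudouridine synthase DKC1 had -0.10 in the authors' deposited table. DKC1 holds 2 small nucleolar RNA genes. In PeBoW WDR12 fell beside BOP1 at 0.12 and PES1 at 0.0048 in the authors' deposited table, which brought WDR12 from 0.30 to -0.03 while its partners stayed between 0.59 and 0.80. Among the NOC proteins NOC3L fell, and CEBPZ, the human counterpart of the yeast protein Noc1, had -0.26 (adjusted p = 0.107, the authors' deposited table). The difference between 2 subunits of a complex was not tested.

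**Figure D3:**
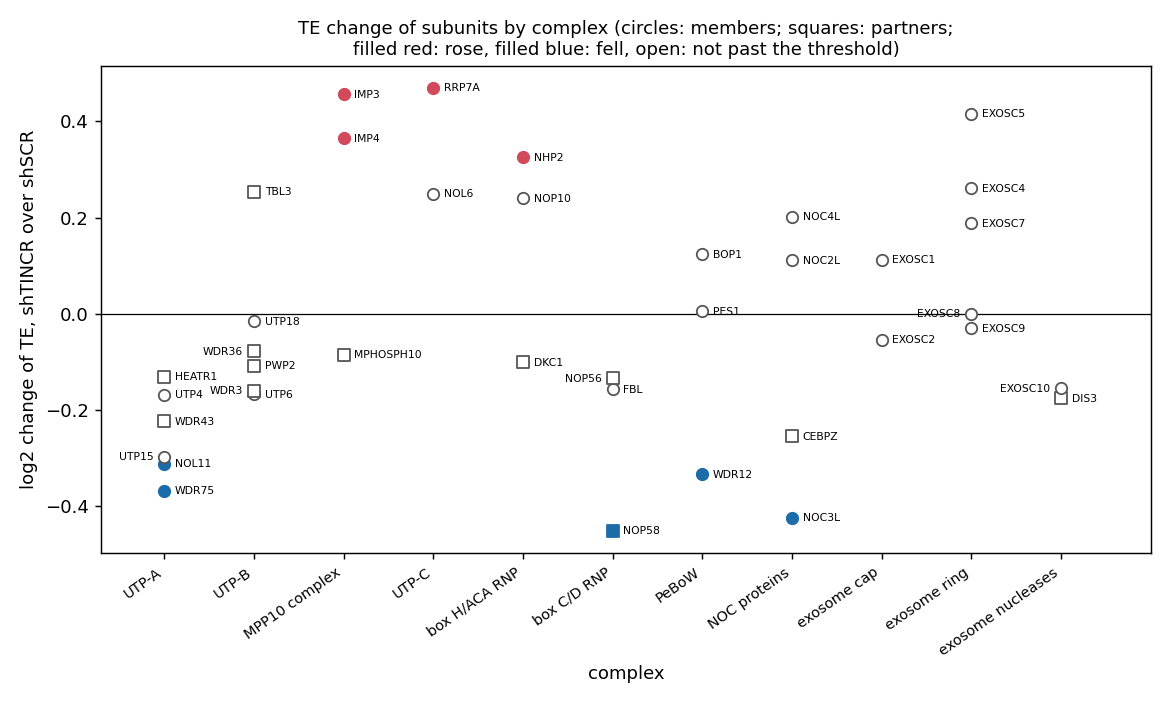
Log2 change of TE, shTINCR over shSCR (y axis), of each measured subunit in 11 complexes or subcomplexes (x axis), from the authors' deposited table, with the 53 biogenesis genes as circles and partners outside the symbol rule as squares. All measured subunits of UTP-A, the box C/D RNP and the exosome nucleases lie below 0, and those of UTP-C above it. Subunits of the other complexes lie on both sides.

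NOP56 and NOP58, the core proteins of the box C/D RNPs that the symbol rule leaves out, had log2 changes of -0.13 (adjusted p = 0.404) and -0.45 (adjusted p = 0.00048, the authors' deposited table). NOP58 fell from a log2 TE of 0.74 to 0.28. The 2 genes hold 5 and 4 genes of small nucleolar RNAs. With them the count of falls would be 6 of 55.

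The other genes of the pathway were taken from 6 lists by function, with 119 measured genes in all. Of these 4 rose (3.36%, against 8.23% of all genes) and 16 fell (13.4%, against 8.17%), 35 lay above 0 and 83 below, and the median log2 change was -0.10 in the authors' deposited table. The same figures for the 53 genes chosen by symbol were 28 above 0 and 24 below, with a median of 0.02. Whether the lists differ from the 53 genes was not tested.

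In RNA polymerase I and its factors, 2 of 15 genes rose and 2 fell, with a median of 0.0056 in the authors' deposited table. That is 13.3% each way, against 8.23% and 8.17% of all genes. The falls were TAF1D (-1.01) and TAF1B (-0.60), subunits of the promoter factor SL1, and the rises POLR2L (0.56) and POLR2E (0.34), subunits shared by the nuclear RNA polymerases, in the authors' deposited table. Among other small subunit factors 0 of 34 rose and 3 fell (1 and 4 at an unadjusted p below 0.05), the helicases DDX10 (-0.38) and DDX21 (-0.30) and the maturation factor LTV1 (-0.39), with a median of -0.10 in the authors' deposited table. The falls make up 8.82% of that list, near the share of all genes. At an unadjusted p below 0.05, 15.8% of all genes rose and 13.7% fell. Of 38 other large subunit factors 5 fell and 1 rose (13.2% and 2.63%), with a median of -0.09 in the authors' deposited table. NSA2 (-0.43), TEX10 (-0.39), PAK1IP1 (-0.39), the AAA ATPase MDN1 (-0.33) and RSL1D1 (-0.33) fell, and SURF6, a nucleolar matrix protein, rose (0.45), in the authors' deposited table.

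Of 10 partners and assembly factors of the box C/D and H/ACA RNPs, NOP58 alone passed the threshold, and the list's median was -0.13 in the authors' deposited table. That fall is 10% of the list, against 8.17% of all genes. Of 10 exosome partners and other nucleases 2 fell (20%), the nuclease XRN2 (-0.38) and TTC37 of the cytoplasmic SKI complex (-0.31), with a median of -0.10 in the authors' deposited table. Among 12 genes of nucleolar organisation 3 fell and 1 rose, with a median of -0.11 in the authors' deposited table. Those are 25% and 8.33% of the 12, against 8.17% and 8.23% of all genes. Here NPM1 (nucleophosmin) fell by 0.537 (adjusted p = 3.15e-09), NCL (nucleolin) by 0.416 (adjusted p = 0.000198) and NIFK by 0.348, whereas MYBBP1A, a repressor of ribosomal RNA synthesis, rose by 0.33 in the authors' deposited table. TAF1D and NCL hold 8 and 3 genes of small nucleolar RNAs. NPM1 has 50 named pseudogenes, NIFK 9, NSA2 7, DDX10 and NCL 2 each, and LTV1, POLR2L and SURF6 1 each. The values of all these genes are uncertain as well.

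**Figure D4:**
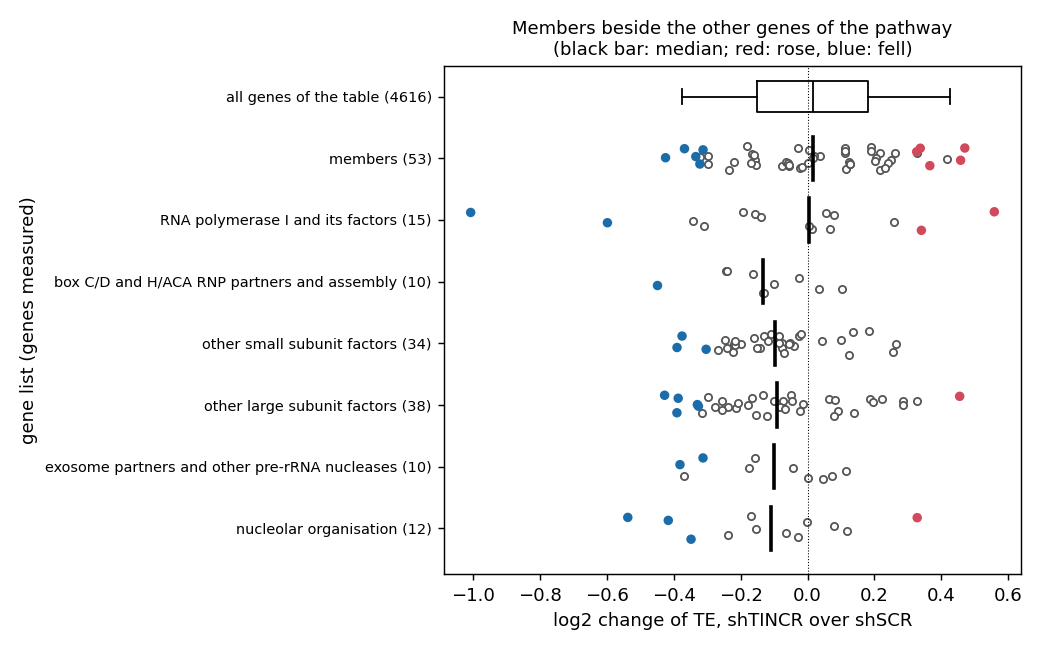
Log2 change of TE, shTINCR over shSCR (x axis), of the 53 biogenesis genes and of the measured genes in 6 other pathway lists, from the authors' deposited table; dots are genes, black bars are medians, and the box for all 4616 genes shows quartiles with whiskers at the 5th and 95th percentiles. The median of the 53 genes lies at that of all genes (0.02), and those of 5 of the 6 lists lie between -0.09 and -0.13.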

How the data were processed

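Footprints were the fragments left after RNase I treatment and a sucrose gradient, per the labels' protocols. The submitters' processing notes name hg19 as the build, and DESeq 1.10.1, HTSeq 0.5.3p9, SAMtools 0.1.18, Bowtie2 2.1.0, TopHat2 2.0.8 and CASAVA 1.9, with no roles. Per the file headers, the authors deposited log2 TE of each condition, log2 changes in 2 versions with a final choice, and a p-value for each with an adjusted p-value. Which tool made them is not stated in the labels or headers. The final p-value was that of the version with the larger p in all 4616 rows. The deposited p-values were used as they stand, and the planned count test was not run, since 0 columns hold values of a single library. Depth is unknown.

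Members and lists were chosen with earlier results of these data known. Every member may be named, with all members past the threshold in full, and at most 8 genes past it per pathway list. Complexes were grouped after the values were seen. The 26 genes counted without an E-box exclude genes with no window. All 53 symbols were current in RefSeq on GRCh38.p14, which was used for names, for genes inside or overlapping others and for start sequences. A pseudogene counts as named where its symbol is the gene's own followed by P and digits, plus RRP7BP for RRP7A. The adjustment and implied standard error were tested on simulated data. Those data were drawn as normal statistics, so the test cannot show that the deposited p-values follow one. The scripts ran in Python 3.11.15 (scipy 1.17.1, numpy 2.4.6, pandas 2.3.3, figures with matplotlib 3.10.9).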

Additional observations from a re-analysis of the deposited data

How the results depend on the processing

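The same 10 genes passed in either version of the estimate. Since the final p-value is the larger of the 2, no call could be lost there, and none was gained. The 10 calls (5 rises and 5 falls) became 1, 1 and 0 at an adjusted p below 0.01, and 18, 8 and 10 at an unadjusted p below 0.05, a setting added after seeing the data. They were 5, 2 and 3 without genes that have a named pseudogene. Falls numbered 3 without genes that hold a small nucleolar RNA gene, whose strand was not compared. The counts stayed within 1.5 times in the other alternatives run, at an adjusted p below 0.1, without GNL1, with NOP56 and NOP58, and without the rows above the upper quartile of the implied standard error. GNL1 is not past the threshold, so leaving it out could not change a count. A looser threshold or added genes could only add calls. Leaving out the largest implied standard errors tends to spare calls, since a call needs a change large beside its error. These settings are thus weak checks of the counts. The median log2 change, 0.0157 as reported, was 0.0103 without GNL1, 0.0048 with NOP56 and NOP58, 0.0358 without genes that hold a small nucleolar RNA gene and 0.0644 without those with a named pseudogene. It lay below 0 without the rows above that quartile (-0.0079) and after centring on the table's median (-0.00036), so its sign is not settled. Named genes past the threshold kept their direction in both versions and after centring. Their calls could not be lost in either version, and centring left the p-values as they were. Of named genes not past the threshold, GNL3L (-0.00036), PES1 (-0.01) and EXOSC8 (-0.02, listed at 0) lay below 0 after centring. The lists were run in both versions and not centred, and kept their counts except that rises among other large subunit factors numbered 2 in the second version.

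No paired analysis was possible because the table holds no values of single libraries. For the same reason leaving out replicates, other normalizations and filters on low counts could not be run. Footprint and mRNA changes cannot be told apart, and a shift common to every mRNA would not show.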
